A study of Mus musculus with 5 samples.

Results

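The MHC class I molecules were followed here through 9 genes, 8 for heavy chains and B2m for the light chain, chosen by name from the 55573 gene identifiers counted in each library. H2-K1 and H2-D1 encode the classical heavy chains. H2-Q4, H2-Q6, H2-Q7, H2-T22, H2-T23 and H2-M3 encode non-classical heavy chains. The libraries were bulk RNA of the right hemisphere of C57BL/6 females inoculated at 7 to 8 weeks of age in the right caudate nucleus-putamen with GL261, a mouse glioma line transduced with a luciferase/mKate2 vector. The vehicle group (3 libraries, 1 mouse each) received inVivoPure pH 6.5 Dilution Buffer, and the UMBO group (2 libraries, 1 mouse each) received ultrasound-mediated blood-brain barrier opening, in which pulsed ultrasound is applied with intravenous microbubbles. Both groups carried the tumor, were treated on days 21 and 24, and were sacrificed 24 h after the last session. Whether vehicle mice received microbubbles or a sham sonication was not given in the sources used here. GL261 comes from C57BL/6 mice, so tumor and host carry the same class I genes and their reads cannot be told apart.

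Class I molecules display peptides from inside the cell on its surface. The heavy chain holds the peptide and needs B2m, an invariant small subunit, to fold and to reach the surface. Classical molecules present peptides to CD8+ T cells, while non-classical molecules have narrower tasks, such as the display of leader peptides to NK cell receptors by Qa-1. Nearly all nucleated cells can express class I, resting brain cells express little of it, and interferons raise its transcription through a response element and the enhancer A region in the promoter.

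The promoters are shown because the members share in them motifs known from class I control. RefSeq promoters on GRCm38.p6 (250 bases before and 50 bases after the start site, 1 per gene) were found for all 9 genes. The windows below run 5′ to 3′ from base -210 to base -1, and capitals mark the motif matches.
H2-K1 (chr17:34000348-34000557, reverse strand): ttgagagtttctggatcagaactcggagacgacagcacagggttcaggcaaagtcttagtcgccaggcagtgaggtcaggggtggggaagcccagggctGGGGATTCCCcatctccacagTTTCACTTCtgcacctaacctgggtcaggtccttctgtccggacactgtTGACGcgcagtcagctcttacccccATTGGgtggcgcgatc
H2-Q7 (chr17:35438945-35439154, forward strand): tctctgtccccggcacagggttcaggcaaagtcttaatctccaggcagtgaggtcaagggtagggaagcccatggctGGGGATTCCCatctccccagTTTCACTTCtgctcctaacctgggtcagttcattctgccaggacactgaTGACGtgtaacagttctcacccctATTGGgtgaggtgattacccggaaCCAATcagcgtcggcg
H2-T22 (chr17:36042743-36042952, reverse strand): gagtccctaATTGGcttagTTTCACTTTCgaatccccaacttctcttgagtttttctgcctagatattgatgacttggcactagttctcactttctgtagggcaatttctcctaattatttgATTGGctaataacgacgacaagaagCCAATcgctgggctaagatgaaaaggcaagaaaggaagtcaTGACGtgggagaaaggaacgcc
H2-M3 (chr17:37270024-37270233, forward strand): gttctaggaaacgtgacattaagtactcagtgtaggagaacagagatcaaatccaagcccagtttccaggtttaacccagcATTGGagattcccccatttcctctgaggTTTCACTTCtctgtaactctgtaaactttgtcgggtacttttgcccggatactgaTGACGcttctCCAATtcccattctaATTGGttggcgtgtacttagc
B2m (chr2:122147477-122147686, forward strand): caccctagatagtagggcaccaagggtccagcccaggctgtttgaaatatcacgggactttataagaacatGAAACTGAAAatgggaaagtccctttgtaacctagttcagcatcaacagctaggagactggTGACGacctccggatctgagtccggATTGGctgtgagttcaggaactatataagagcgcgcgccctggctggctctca

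Every one of the 9 promoters held a match to an interferon-type response element, searched on both strands as TTTC, 2 bases of any kind and then TTC or TTTC, against 10.4% of the 27025 RefSeq promoters of this length. The shorter form, TTTCNNTTC, was matched in 6 members and in 7.56% of all promoters, in each member as the same letters, TTTCACTTC. These were H2-K1, H2-D1, H2-Q4, H2-Q6, H2-Q7 and H2-M3. The full form, which ends in TTTC, was matched in H2-T22, H2-T23 and B2m and in 3.49% of all promoters. The kappa B site of enhancer A, a run of 10 letters that stands first in capitals in the H2-K1 and H2-Q7 windows, was present in H2-K1, H2-D1, H2-Q6 and H2-Q7 and in 0.104% of all promoters. In these 4 genes it started 20 or 21 bases before the start of the response element. CCAAT or its reverse was matched in all 9 members and in 37.9% of all promoters, and TGACG, the core of a cyclic AMP response element, in 7 members and in 21% of all promoters. No 2 of these motifs overlapped in a member. The heavy chain genes descend from one another, so their matches are not independent, and a match is a run of letters rather than a bound site. The motifs were chosen with the members' sequences and results in view.

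**Figure D1:**
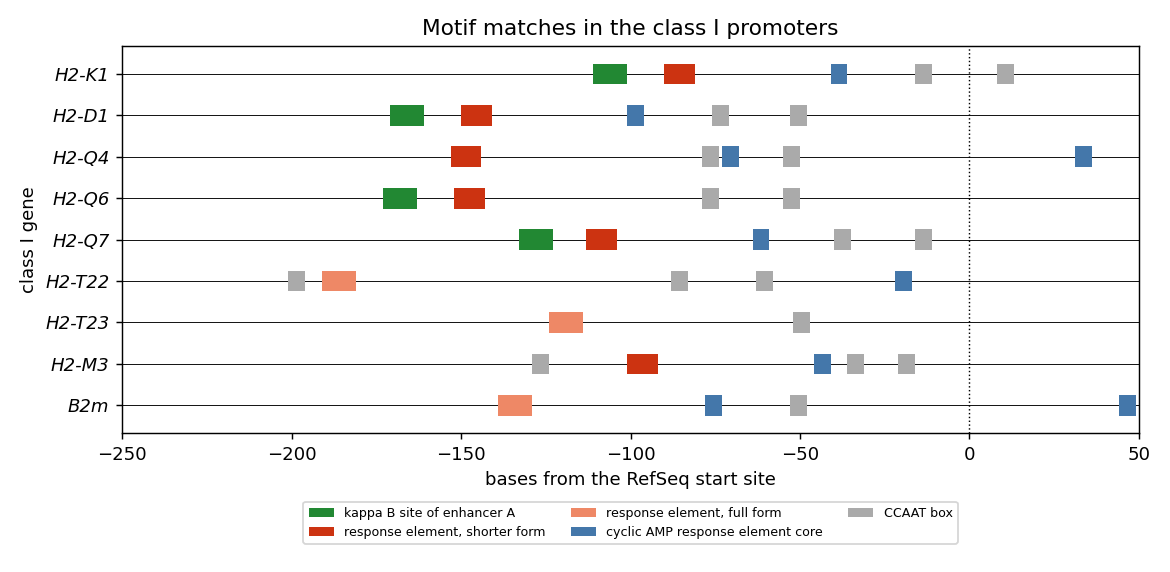
Motif matches in the promoters of the 9 class I genes; the x axis gives the distance in bases from the RefSeq start site (dotted line), each row is a gene and each colored box a match. A response element of either form lies upstream of the start site in all 9 rows, and an exact kappa B match stands before it in 4.

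Where the 9 genes lie and how far their reads can be separated bears on each value. The heavy chain genes lie on chromosome 17 of GRCm38 in GENCODE M21, from H2-K1 (33996017 to 34000347, reverse strand) through H2-D1 (35262730 to 35267499) and the Q region to the T region and H2-M3 (37270220 to 37274484), and B2m lies on chromosome 2 (122147686 to 122153083). Of the 100-base windows in the annotated transcripts, a proxy for 1 end of a read pair, none in H2-M3 and B2m was found in another gene. The share was 0.957% for H2-K1, 3.59% for H2-D1 and 3.15% for H2-T23. H2-Q4, H2-Q6 and H2-Q7 shared between 11.98% and 14.07% of their windows, in H2-Q6 mainly with H2-Q7. H2-T22 shared 31.5%, mostly with A930015D03Rik, which overlaps it on the opposite strand, and with H2-T10. Values for the Q region genes and H2-T22 are therefore less certain, since the counting setting for strand and for shared reads was not given in the sources used here.

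In the classical genes, mice of one group differed by more than the group means did. H2-K1 was at 79.9, 441 and 141 CPM (counts scaled to a common library size by TMM) in vehicle replicates 1 to 3, and at 206 and 1024 CPM in UMBO replicates 1 and 2. Vehicle replicate 2 was above UMBO replicate 1, so the groups overlapped, and UMBO replicate 2 stood above all others. The vehicle mean was 221 ± 193 CPM (SD, n = 3), and the mean of the UMBO libraries 615 ± 578 CPM (SD, n = 2). This gave a log2 fold change of 1.48 with a standard error of 0.895 and a 95% interval from -0.71 to 3.67, which includes no difference (edgeR quasi-likelihood test, Benjamini-Hochberg adjusted p = 0.497). In bulk RNA, fewer cells that express a gene and less RNA per cell cannot be told apart, here and for all values that follow. H2-D1, the other classical gene, was at 105, 499 and 177 CPM in the vehicle libraries and at 247 and 1075 CPM in the UMBO libraries. Its libraries stood in the same order as those of H2-K1, and its log2 fold change was 1.34 (standard error 0.825).

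B2m followed the classical heavy chains. It was at 179.8, 722 and 269.9 CPM in vehicle replicates 1 to 3 and at 388 and 1385 CPM in UMBO replicates 1 and 2. Again vehicle replicate 2 exceeded UMBO replicate 1. The log2 fold change was 1.18 (standard error 0.747), with a 95% interval from -0.65 to 3.01.

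In the Q region, H2-Q4 gave the highest CPM. It was at 18.5, 107 and 31.8 CPM in the vehicle libraries and at 43.6 and 221 CPM in the UMBO libraries, a log2 fold change of 1.33 (standard error 0.91). H2-Q6 and H2-Q7, which encode Qa-2 antigens, had similar CPM in each library. H2-Q6 was at 6.08, 31.0 and 13.1 CPM with vehicle and at 13.9 and 61.9 CPM with UMBO. H2-Q7 was at 5.10, 31.0 and 12.6 CPM with vehicle and at 16.1 and 63.8 CPM with UMBO. H2-Q6 gave a log2 fold change of 1.18 (standard error 0.818) and H2-Q7 one of 1.30 (standard error 0.837), and neither gene had UMBO replicate 1 above vehicle replicate 2.

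The T region genes behaved alike. H2-T23, which encodes Qa-1, the ligand of the NK cell receptor CD94/NKG2A, was at 27.3, 125 and 32.7 CPM with vehicle and at 49.7 and 251 CPM with UMBO (log2 fold change 1.29, standard error 0.882). H2-T22, a ligand of some gamma delta T cell receptors, was at 29.4, 94.3 and 35.8 CPM with vehicle and at 49.2 and 216 CPM with UMBO. The fitted difference was 1.32 on the log2 scale (standard error 0.735). H2-M3, which presents N-formylated peptides, had the lowest CPM of the 9. It was at 3.60, 10.5 and 4.88 CPM with vehicle and at 6.41 and 20.7 CPM with UMBO, a log2 fold change of 1.10 (standard error 0.633). Its spread was also the narrowest, at 2.93-fold between the highest and the lowest vehicle library.

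**Figure D2:**
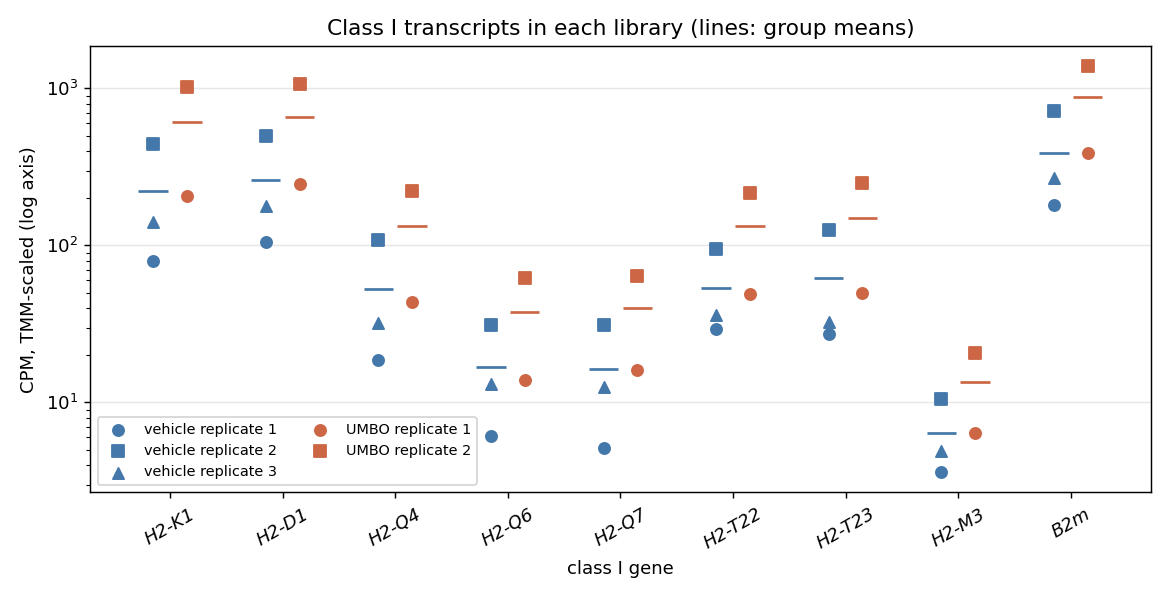
CPM after TMM scaling (y axis, log scale) of the 9 class I genes (x axis) in each library; blue points are vehicle and orange points UMBO, the shape gives the replicate and short lines are group means. In every gene UMBO replicate 2 is highest and vehicle replicate 2 stands above UMBO replicate 1.

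Over the 9 genes, the fitted log2 fold change was above 0 in 9 members and in 50.9% of all genes tested, with a member median of 1.30 and a range from 1.10 to 1.48, where the median of all 23592 genes tested was 0.01. A log2 fold change above 1 was reached by 9 members and by 11.4% of all genes tested. After adjustment at 0.05 edgeR called none of them, and 0% of all genes tested. At an unadjusted p under 0.05, 0 of the 9 passed, against 5.3% of all genes tested in the direction of higher with UMBO and 2.06% in that of lower. The DESeq2 Wald test called 0 of the 9 adjusted and 0 unadjusted, against 0.178% and 11.2% of all genes tested. The number of members in which the UMBO libraries were both higher than all vehicle libraries was 0 of 9, where 11.5% of all genes tested had this pattern. Both were lower in 0 of 9 and in 11.4% of all genes tested. The smallest unadjusted p among the members was 0.123, for H2-T22. All 9 passed the filter on low counts, with between 269 and 90707 counts per gene and library.

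UMBO replicate 2 carried the difference. Without it the log2 fold changes lay between -0.31 (H2-T23) and 0.02 (H2-M3), with a median of -0.10, and 8 of the 9 were below 0. For H2-K1 the value was -0.10 with a 95% interval from -1.98 to 1.78. UMBO replicate 1 is then alone in its group, and the interval assumes that it varies like the vehicle libraries. Without vehicle replicate 2, which held the highest vehicle level in each of the 9, the values lay between 1.72 and 2.51 and still passed no adjusted threshold (edgeR adjusted p = 0.42 for each).

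**Figure D3:**
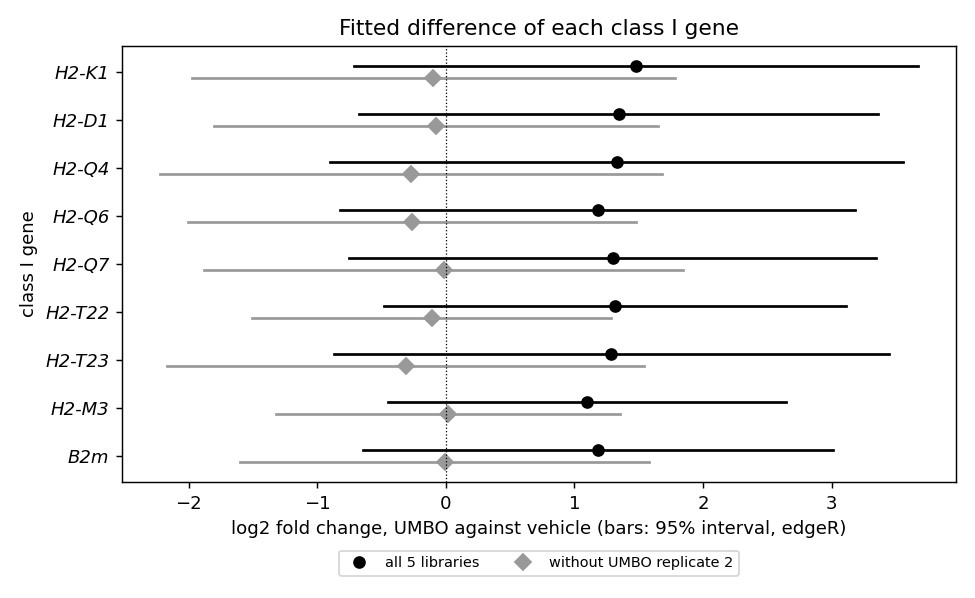
Log2 fold change of UMBO against vehicle (x axis) for each class I gene (rows) with 95% intervals from edgeR, with all 5 libraries (black circles) and without UMBO replicate 2 (grey diamonds, with the spread taken from the vehicle libraries). Every interval crosses 0, and the grey values lie between -0.31 and 0.02.

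The members shared 1 order of libraries. From lowest to highest it was vehicle replicate 1, vehicle replicate 3, UMBO replicate 1, vehicle replicate 2 and UMBO replicate 2 in 9 of 9 members, and in 8.26% of all genes tested. The 2 highest places alone, UMBO replicate 2 before vehicle replicate 2, were filled alike in 24.5% of all genes tested. The order was read from these values and is given as a description. Among the vehicle mice alone, the highest library was between 2.93-fold (H2-M3) and 6.09-fold (H2-Q7) above the lowest, with a median of 4.74-fold, against a median of 1.42-fold for all genes with a count in every vehicle library. UMBO replicate 2 was between 1.92-fold (B2m) and 2.32-fold (H2-K1) above vehicle replicate 2. Vehicle replicate 2 was in turn between 1.65-fold (H2-M3) and 2.52-fold (H2-T23) above UMBO replicate 1. Of all counts, the 9 genes together took 0.0414%, 0.209% and 0.0707% in the vehicle libraries, while the UMBO libraries gave 0.102% and 0.473%.

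The 8 heavy chains were also summed, so that reads placed on the wrong member stay in the value. The sum had 20562, 90251 and 38075 counts in the vehicle libraries, and 54071 and 192016 counts in the UMBO libraries. Its log2 fold change was 1.37 (standard error 0.86, 95% interval from -0.73 to 3.48), with an edgeR adjusted p of 0.497. This sum gave -0.12 without UMBO replicate 2.

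Per kilobase of exonic length, B2m was the most abundant of the 9 in every library, followed by H2-D1 and then H2-K1. The mean over the 5 libraries was 685 CPM per kilobase for B2m, 163 for H2-D1 and 129 for H2-K1. H2-T23, H2-Q4 and H2-T22 followed at 33.6, 32.5 and 24.9 CPM per kilobase, and their order changed between libraries. H2-Q6 was at 12.1, and H2-M3 and H2-Q7 were last at 6.42 and 6.03 CPM per kilobase, again without a fixed order. The lengths are those of all annotated exons of a gene together, 2085 bases for H2-Q6 and 4265 for H2-Q7. These 2 genes had similar CPM, so the gap between them follows these lengths. The ranks, and the shares and ratios below, depend on the lengths too.

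The make-up of the heavy chain signal varied far less than its size. H2-D1 gave between 39.3% and 42.0% of the summed heavy chain reads per kilobase, a 1.07-fold range. H2-K1 gave between 27.3% and 32.9%, and its share was lowest in vehicle replicate 1 and highest in UMBO replicate 2, in the same order as its level. The share of H2-M3 had the reverse order, from 2.51% in vehicle replicate 1 to 1.36% in UMBO replicate 2. The remaining shares varied between 1.19-fold (H2-Q4) and 1.52-fold (H2-T22). The shares of the groups overlapped in each of the 8 genes except H2-Q6. The share of H2-Q6 was 2.91% and 2.80% with UMBO and between 2.93% and 3.83% with vehicle. The gap was small, and reads of H2-Q6 can be shared with H2-Q7. In CPM, both UMBO libraries were below all vehicle libraries in 11.4% of all genes tested, so such a separation is common.

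Each heavy chain pairs with 1 B2m, so the summed heavy chain per B2m, both per kilobase, gives their balance at the RNA level. This ratio was 0.477, 0.578 and 0.521 for the vehicle libraries and 0.508 and 0.658 for the UMBO libraries, which overlap. On the log2 scale the vehicle libraries had a mean of -0.93 ± 0.14 (SD, n = 3), and for UMBO it was -0.79 ± 0.26 (SD, n = 2). The difference of 0.14 was smaller than the latter SD (exact permutation test, 2-sided, p = 0.5). With 10 groupings of the libraries the smallest p this test can give is 0.1.

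**Figure D4:**
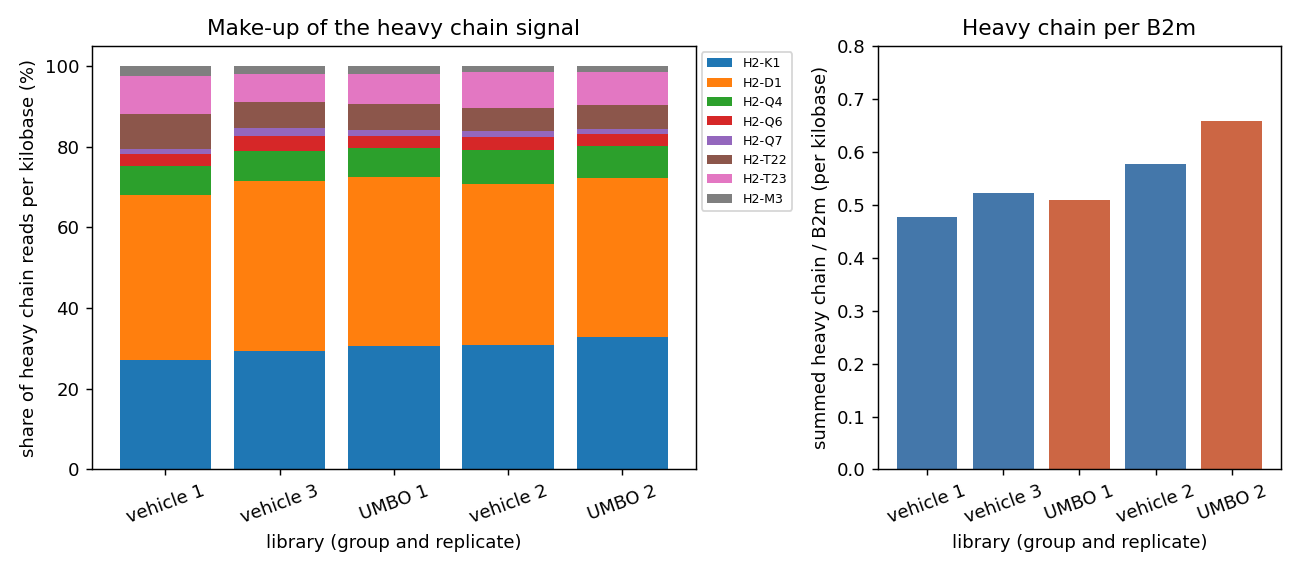
Left, the share of each heavy chain gene in the summed heavy chain reads per kilobase (y axis, %) for each library; right, the summed heavy chain divided by B2m, both per kilobase. Libraries are ordered by class I level; H2-D1 stays between 39.3% and 42.0%, and the ratio runs from 0.477 in vehicle replicate 1 to 0.658 in UMBO replicate 2.

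Genes outside the members with a very similar course over the 5 libraries included Gbp4, Rtp4, Tap2 and Gm4951. Likeness was the root mean square difference between a gene's log2 CPM, centred on its mean, and the median centred log2 CPM of the 9 members, among 12713 genes with a mean of at least 5 CPM. Gbp4, an interferon-induced guanylate-binding protein, differed by 0.089 on the log2 scale. It was at 14.5, 70.7 and 21.0 CPM with vehicle and at 31.6 and 132 CPM with UMBO, so vehicle replicate 2 was again above UMBO replicate 1. Rtp4, also interferon-induced, differed by 0.111. Tap2, a subunit of the peptide transporter, differed by 0.112, and Gm4951 by 0.115. H2-D1 itself differed from the members' median by 0.019, but it is 1 of the 9 genes that set this median, so its closeness is partly built in. H2-M3, the least alike of the 9, differed by 0.29, and 81 genes outside the members were closer. For H2-T22 this number was 25.

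The genes that supply and load peptides had the same direction. Of 13 such genes 13 had a log2 fold change above 0, with a median of 1.08, against 50.9% of all genes tested. The members' order of libraries was shared by 11, and by 8.26% of all genes tested. None passed the edgeR test, adjusted or at an unadjusted p under 0.05, where 5.3% of all genes tested had the latter and were higher with UMBO. The 3 with the smallest p were Pdia3, Psme2 and Psme1. Pdia3, a thiol oxidoreductase of the loading complex, was at 203, 271 and 213 CPM with vehicle and at 257 and 479 CPM with UMBO (log2 fold change 0.69, standard error 0.321). Psme2 and Psme1, subunits of the proteasome activator PA28, were higher by fitted log2 fold changes of 1.57 (standard error 0.748) and 1.31 (0.651), and Psme2 can share reads with Psme2b. In all 3 genes vehicle replicate 2 was above UMBO replicate 1.

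Of the 20 genes that control class I transcription 19 were tested, and the median log2 fold change was 0.51. It was above 0 in 15 and below in 4, where 50.9% of all genes tested were above 0. The library order of the members was shared by 8, and by 8.26% of all genes tested. Ifngr1, a chain of the interferon gamma receptor, had an unadjusted p of 0.045, did not pass when adjusted (edgeR adjusted p = 0.497), and was higher in both UMBO libraries (26.2 and 40.4 CPM) than in the vehicle libraries (17.8, 25.4 and 20.3 CPM). Irf8, an interferon regulatory factor of myeloid cells, differed by 1.49 on the log2 scale (standard error 0.637). For Ifnar2, a chain of the type I interferon receptor, it was 0.60 (standard error 0.273). Nlrc5, Ifng and Ifnb1 were named after their values were seen. Nlrc5, the transactivator of class I genes, was at 11.8, 41.8 and 18.0 CPM with vehicle and at 23.8 and 87.7 CPM with UMBO, in the members' order. Ifng, the interferon made by T and NK cells, was low, at between 0.080 and 0.641 CPM, and Ifnb1 was at 0 in 1 library and at most 0.046 CPM in the others.

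Among 19 other class I and class I-like genes, 15 were tested and 14 had a log2 fold change above 0, with a median of 0.70. The members' order was shared by 3. Of all genes tested, 50.9% were above 0 and 8.26% had this order. Procr, the endothelial protein C receptor, had the smallest p. It was at 0.562, 1.54 and 0.933 CPM with vehicle and at 2.41 and 7.41 CPM with UMBO, without overlap. Its log2 fold change was 2.28 (standard error 0.618, edgeR unadjusted p = 0.010, edgeR adjusted p = 0.497). Over all genes tested, 5.3% had an unadjusted p under 0.05 and were higher with UMBO. Both UMBO libraries were above all vehicle libraries in 11.5%. The 6 endothelial markers summed to between 151 and 215 CPM with vehicle and to 258 and 300 CPM with UMBO, and their part in the Procr values was not tested. Fcgrt, the neonatal Fc receptor, which pairs with B2m and binds IgG, was at 13.6, 25.4 and 18.1 CPM with vehicle and at 26.1 and 33.0 CPM with UMBO. Its UMBO libraries also lay above the vehicle libraries, by little for UMBO replicate 1, with a log2 fold change of 0.63 (standard error 0.295). H2-T10, which shares sequence with H2-T22, was at 2.55, 7.68 and 2.54 CPM with vehicle and at 4.07 and 27.2 CPM with UMBO.

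A list of 17 genes for receptors and receptor chains of T, NK and myeloid cells, drawn up for class I, summed to between 5.51 and 57.5 CPM. Not all of them encode receptors for class I itself, with Ncr1, Lilrb4a and the Cd3 chains among the exceptions. All 17 had a log2 fold change above 0, with a median of 1.22, against 50.9% of all genes tested. The members' order was shared by 3, and by 8.26% of all genes tested. Cd8a, a chain of the T cell coreceptor for class I, named after its values were seen, was at 0.441, 2.02 and 2.62 CPM with vehicle and at 0.971 and 4.76 CPM with UMBO. Pirb, an inhibitory myeloid receptor for class I, was at 0.949, 3.55 and 1.76 CPM with vehicle and at 2.15 and 11.4 CPM with UMBO. Klra2, of the Ly49 family, differed by 1.62 on the log2 scale (standard error 0.902), and Lilrb4a, an inhibitory receptor of myeloid cells, by 1.49 (standard error 0.704). None of the 17 passed the adjusted test in edgeR, and 1, the NK cell receptor gene Ncr1, had an unadjusted p under 0.05. Of all genes tested, 5.3% reached this in the direction of higher with UMBO, so 1 of 17 is near the background.

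Markers of cell types were read from the same libraries. UMBO replicate 2 lay apart on the main component of the most variable genes, at 57.6 where the other libraries lay between -35.1 and 11.7. The 10 markers of proliferating cells, tumor cells among them, summed to 478 CPM in it, to 111 CPM in UMBO replicate 1 and to between 31.9 and 106 CPM with vehicle. Of 14 marker lists, 2 had summed levels in the members' order, an order that 8.26% of all single genes tested had. The 8 markers of monocytes and macrophages summed to between 31.9 and 41.4 CPM with vehicle and to 39.8 and 128 CPM with UMBO. Singly, 4 of the 8 had the members' order, and Ccr2, Chil3, Itga4 and Adgre4 did not. Itga4 weighed on the vehicle sums, at 22.6, 14.2 and 22.6 CPM in replicates 1 to 3. The 6 NK cell markers summed to between 2.41 and 8.22 CPM with vehicle and to 5.23 and 32.7 CPM with UMBO. Of these 6, 4 had the members' order, and Ncr1 and Eomes did not. The 8 T cell markers had their highest sum in UMBO replicate 2 (46.4 CPM) and their lowest in UMBO replicate 1 (10.4 CPM). Trbc2 weighed on this sum, at 7.34 CPM in vehicle replicate 1 and 2.14 CPM in UMBO replicate 1. Of the other T cell markers only Cd2 was lowest in UMBO replicate 1, and the rest were lowest in vehicle replicate 1. Microglia markers (6 genes) did not follow class I, summing to 140.3 to 161 CPM with vehicle and 239 and 199 CPM with UMBO. Their sum was highest in UMBO replicate 1, and Tmem119 alone was highest in UMBO replicate 2. The 6 neuronal markers were well detected at a summed 2326 to 7211 CPM. Their sum was lowest in UMBO replicate 2, and Tubb3 alone was lowest in vehicle replicate 3. The 5 neutrophil markers had the members' order in the upper places, at 5.11 CPM in UMBO replicate 2, 1.71 in vehicle replicate 2 and 0.819 in UMBO replicate 1, but were lowest in vehicle replicate 3. Summed astrocyte markers were lower in UMBO replicate 2 (1750 CPM) than in the other libraries (2970 to 4278 CPM). Summed choroid plexus markers were too (487 against 796 to 843 CPM). Of the 5 astrocyte markers only Aldh1l1 went the other way, with its highest value, 89.1 CPM, in UMBO replicate 2. Of the 86 single markers 10 shared the members' order, which is near the share of 8.26% over all genes tested. Ly6g of the neutrophil list was at 0 in some library. The part of tumor load and of immune cells in the class I levels was not tested.

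**Figure D5:**
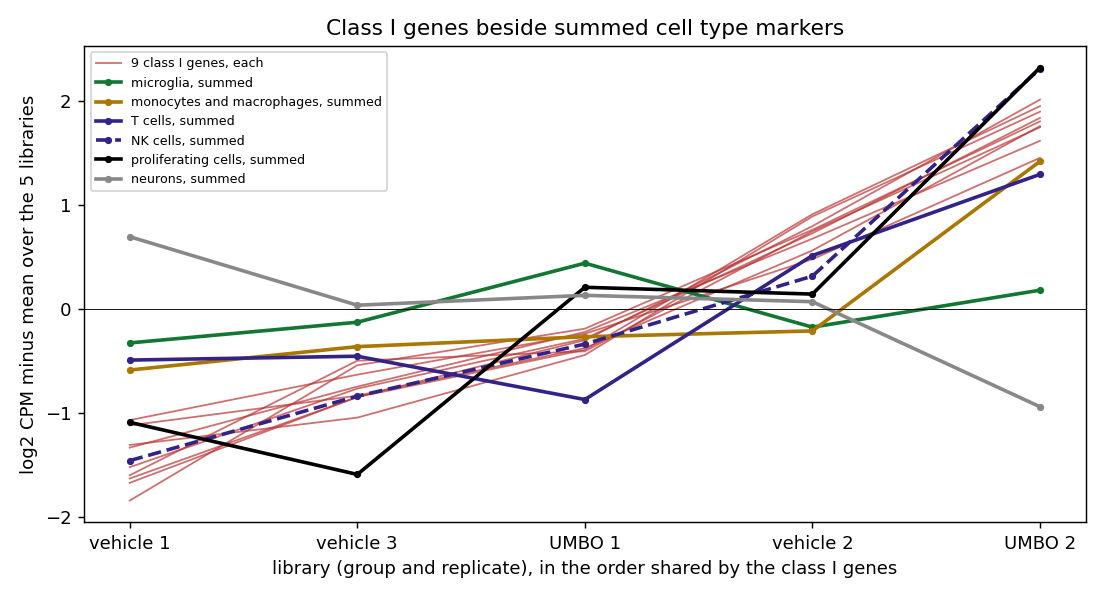
Log2 CPM minus its mean over the 5 libraries (y axis) for each of the 9 class I genes (thin red lines) and for the summed CPM of 6 marker lists (thick lines), by library (x axis) in the order shared by the class I genes. The red lines climb together from vehicle replicate 1 to UMBO replicate 2, while microglia are highest in UMBO replicate 1 and neurons fall to their lowest in UMBO replicate 2.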

How the data were processed

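The study's methods describe 6 mice in 2 groups, and the right-hemisphere RNA libraries of 3 vehicle and 2 UMBO mice were analysed here. The authors used STAR 2.7.2a to map reads to GRCm38, and the deposited values are raw counts per gene without normalization; the annotation release and the strand setting were not given in the sources used here. Identifiers (55573) took their symbols from GENCODE M21, of the same build, which held 55394. Totals ran from 59736771 to 86164159 counts, so the spread between mice, not counting error, limits the precision. Library pairs differed by a chi-square per gene of 58.1 or more, where sampling noise gives about 1, so no library is a copy of another.

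After TMM scaling and the filterByExpr filter, which all 9 members passed, edgeR 4.0.16 (R 4.3.3) compared the groups over 23592 genes by its quasi-likelihood test. Benjamini-Hochberg adjusted p-values were held against 0.05. The test sets the difference between groups against the spread between mice. DESeq2 1.42.0 was an alternative. Log2 CPM used a prior count of 2. Standard errors were taken from the F statistic. The scripts were tested on simulated data.

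The members and lists were chosen with earlier results of these data known. All members were named, besides the 3 genes with the smallest p of each pathway list (mean of at least 1 CPM) and the 5 genes of most similar course, 1 of which is not reported here; others are marked. The alternatives were the scaling, the filter, the test, the replicate number as a block, related genes summed and each library left out.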

Additional observations from a re-analysis of the deposited data

How the results depend on the processing

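With other scalings, other filters, the DESeq2 Wald test or related genes summed, the 52 fitted values of the members stayed between 1.07 and 1.60 and passed no adjusted threshold (edgeR or DESeq2 adjusted p from 0.439 to 0.518). Scaling by library size alone moved the median of all genes from 0.01 to 0.13 and that of the members from 1.30 to 1.42. At an unadjusted p under 0.05, 5 of the 9 members passed with no filter on low counts (4100 of 40435 genes). All 9 passed without vehicle replicate 2 (11.6% of all genes), without UMBO replicate 1 (41%) and with the replicate block (26%), and 0 passed under the other settings. The prior count does not enter the fitted values. The number of genes past the threshold was 0 in edgeR, 42 with the DESeq2 Wald test and 2337 with the replicate block. With this block 9 of the 9 members passed, against 9.91% of all genes tested. Their log2 fold changes ran from 0.91 to 1.34, and the summed heavy chains gave 1.17 (edgeR adjusted p = 0.0498). No label ties same-numbered mice to one litter or day. Deviations of same-numbered libraries correlated at 0.453 and 0.76, but UMBO replicate 1 correlated more with vehicle replicate 3 (0.521). The deviations of the 2 UMBO libraries are mirror images by construction, so the pairing is not established.

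Leaving out each library in turn, the median of the members ranged from -0.10 (without UMBO replicate 2) to 2.21 (without vehicle replicate 2), the summed heavy chains from -0.12 to 2.34, and the log2 ratio of heavy chain to B2m from -0.044 to 0.33. The values ranged from -0.10 to 2.51 for H2-K1, from -0.077 to 2.26 for H2-D1, from -0.27 to 2.43 for H2-Q4, from -0.27 to 2.02 for H2-Q6, from -0.018 to 2.21 for H2-Q7, from -0.11 to 2.06 for H2-T22, from -0.31 to 2.37 for H2-T23, from 0.02 to 1.72 for H2-M3 and from -0.011 to 2.02 for B2m. The members past the threshold numbered 0 to 1 and all genes past it 0 to 4543. Both maxima came without UMBO replicate 1, which leaves UMBO replicate 2 alone in its group, assumed to vary like the vehicle libraries. The member was H2-T22, with a log2 fold change of 1.99 in this fit, and 31.5% of its windows are shared with other genes. The fit without UMBO replicate 1 tested 24814 genes, and the members' share past the threshold was below that of all genes. With 1 UMBO library, no result for the members is drawn from it.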
